A study of Mus musculus with 2 samples.

Results

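The regions described here are the widest stretches of RUNX2 signal that both replicates of the study called: merged regions on chromosomes 1 to 19 whose widest peak measured at least 1000 bp in replicate 1 and at least 1000 bp in replicate 2. They number 490 of the 17836 shared regions on these chromosomes, which is 2.75%. The other 17346 shared regions serve as the comparison, and a shared region is one where a peak of each replicate overlapped by at least 1 bp. The members were selected on peak width, so their widths are given as a description and nothing is supported with them.

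The study profiled RUNX2 in MC3T3-E1, an established mouse line of osteoblast precursors, left untreated and with no genetic change named in the labels. CUT&Tag was used, in which an antibody brings a transposase to the protein so that nearby DNA is cut and tagged for sequencing. There was 1 group with 2 replicates, and the samples held no control library and no other condition. The labels leave it unstated whether each replicate was a culture of its own, the deposited lists give peak positions and widths only, and depth is therefore unknown.

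RUNX2 is the transcription factor that osteoblast formation depends on. It binds DNA through its Runt domain together with CBFB, at a core sequence read as TGTGGT on one strand, and in osteoblasts it is known for its action on bone matrix genes. The width of a CUT&Tag peak reflects how far tagged fragments extended, so a wide peak can hold several bound sites, or an open stretch, within 1 called interval.

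The stretches before the starts of 5 genes are shown first, because a wide region covered the whole promoter window of each of them in both replicates and the genes belong to the widest regions or to the gene lists described below. Each is the 250 bases before the start from RefSeq's promoter table (GRCm38.p6), 5′ to 3′ on the gene's strand, and lies outside every annotated gene span. Capitals mark GGGCGG, the box read by SP and KLF factors, and CCAAT, on either strand. The genes are Ubb (polyubiquitin; chr11:62550921-62551170, plus strand), Dusp1 (a phosphatase that switches off MAP kinases; chr17:26508473-26508722, minus strand), Polr2a (the largest subunit of RNA polymerase II; chr11:69758634-69758883, minus strand), Mdm2 (the ubiquitin ligase of p53; chr10:117710759-117711008, minus strand) and Hexim1 (an inhibitor of the elongation factor P-TEFb; chr11:103116075-103116324, plus strand).
Ubb: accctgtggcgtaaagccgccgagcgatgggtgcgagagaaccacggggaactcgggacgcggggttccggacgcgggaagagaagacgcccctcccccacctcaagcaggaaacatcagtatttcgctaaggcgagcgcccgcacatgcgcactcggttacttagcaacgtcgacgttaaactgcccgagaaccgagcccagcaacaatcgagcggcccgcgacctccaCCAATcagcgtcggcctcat
Dusp1: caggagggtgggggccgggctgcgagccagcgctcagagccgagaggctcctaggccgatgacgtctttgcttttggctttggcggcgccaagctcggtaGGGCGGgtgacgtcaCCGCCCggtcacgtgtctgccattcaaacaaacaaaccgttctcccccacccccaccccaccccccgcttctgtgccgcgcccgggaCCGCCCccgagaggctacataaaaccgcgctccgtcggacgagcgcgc
Polr2a: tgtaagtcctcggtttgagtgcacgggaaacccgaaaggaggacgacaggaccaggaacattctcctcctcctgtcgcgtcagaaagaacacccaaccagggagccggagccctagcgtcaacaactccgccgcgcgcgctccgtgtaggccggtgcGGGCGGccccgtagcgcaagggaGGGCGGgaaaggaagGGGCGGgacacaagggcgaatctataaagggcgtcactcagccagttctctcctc
Mdm2: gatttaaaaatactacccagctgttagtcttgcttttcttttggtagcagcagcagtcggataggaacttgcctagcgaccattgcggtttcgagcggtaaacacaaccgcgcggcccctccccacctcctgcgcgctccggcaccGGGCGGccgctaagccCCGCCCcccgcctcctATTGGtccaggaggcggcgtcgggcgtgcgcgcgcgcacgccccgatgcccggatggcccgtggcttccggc
Hexim1: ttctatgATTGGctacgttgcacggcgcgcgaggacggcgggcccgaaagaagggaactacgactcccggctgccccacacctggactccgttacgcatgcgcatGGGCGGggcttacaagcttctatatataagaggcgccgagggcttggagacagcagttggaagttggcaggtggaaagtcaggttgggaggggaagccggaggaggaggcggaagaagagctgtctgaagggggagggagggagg

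All 5 stretches were rich in G and C, from 61.2% in Hexim1 to 68.4% in Dusp1, with 18 to 30 CpG dinucleotides each. Dusp1 and Polr2a each held 3 GGGCGG boxes, and Ubb held 1 CCAAT whose first base lay 20 bases before the start. None of the 5 held the letters TGTGGT or the AP-1 letters TGANTCA on either strand in these 250 bases, which says nothing about RUNX2 itself.

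For contrast, 4 further stretches under wide regions did hold the RUNX core, and they were picked for that match after the search, outside the rule for named genes. Here capitals mark TGTGGT, or its complement ACCACA, alone. They precede Fem1a (a substrate receptor of a cullin ubiquitin ligase; chr17:56256543-56256792, plus strand), Ing3 (a subunit of the TIP60 acetyltransferase complex; chr6:21949321-21949570, plus strand), Gtf3c2 (a subunit of TFIIIC, which RNA polymerase III uses at tRNA genes; chr5:31180145-31180394, minus strand) and Lamtor2 (a subunit of the Ragulator complex on lysosomes; chr3:88552952-88553201, minus strand).
Fem1a: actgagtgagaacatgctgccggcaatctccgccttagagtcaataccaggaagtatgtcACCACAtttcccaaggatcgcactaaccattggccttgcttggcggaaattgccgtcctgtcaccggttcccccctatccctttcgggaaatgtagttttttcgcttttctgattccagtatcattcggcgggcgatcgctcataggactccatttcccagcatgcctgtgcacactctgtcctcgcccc
Ing3: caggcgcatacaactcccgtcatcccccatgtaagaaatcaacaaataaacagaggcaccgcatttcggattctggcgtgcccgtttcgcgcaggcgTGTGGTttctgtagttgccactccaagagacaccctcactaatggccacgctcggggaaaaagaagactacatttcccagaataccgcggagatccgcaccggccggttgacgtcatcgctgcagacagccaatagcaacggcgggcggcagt
Gtf3c2: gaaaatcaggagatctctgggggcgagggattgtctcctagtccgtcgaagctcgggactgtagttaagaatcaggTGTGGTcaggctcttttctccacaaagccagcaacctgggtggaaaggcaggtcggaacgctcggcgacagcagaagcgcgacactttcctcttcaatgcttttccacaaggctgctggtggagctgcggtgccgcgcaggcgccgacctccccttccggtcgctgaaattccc
Lamtor2: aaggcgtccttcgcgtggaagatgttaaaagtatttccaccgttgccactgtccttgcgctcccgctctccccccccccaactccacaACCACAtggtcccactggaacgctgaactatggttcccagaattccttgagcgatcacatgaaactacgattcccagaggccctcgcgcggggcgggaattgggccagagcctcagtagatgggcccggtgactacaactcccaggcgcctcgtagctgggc

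In these 4 the first base of the core lay between 153 bases (Ing3) and 190 bases (Fem1a) before the start. Their regions had widths in replicate 1 and replicate 2 of 1136 and 1138 bp at Fem1a, 1044 and 1105 bp at Ing3, 1019 and 1149 bp at Gtf3c2, and 1054 and 1015 bp at Lamtor2.

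Across all promoter windows the RUNX core was no more frequent under wide regions than elsewhere. A window here spans 250 bases before to 50 after a coding start, and 161 windows of 135 genes were wholly covered by a wide region in both replicates. The letters TGTGGT, on either strand, occurred in 15 of these windows (9.32%, 95% Wilson interval 5.73 to 14.8%), in 12.5% of the 1674 windows wholly covered by other shared regions and in 14.8% of all 20084 windows on chromosomes 1 to 19. The AP-1 letters TGANTCA occurred in 1.24% of windows under wide regions (0.341 to 4.42%), in 3.94% under other shared regions and in 7.06% of all windows.

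The GC-box and CCAAT letters showed the opposite order against all windows. GGGCGG was found in 66.5% of windows under wide regions (58.9 to 73.3%), in 74.0% under other shared regions and in 47.0% of all windows, and CCAAT in 52.2%, 51.4% and 38.1%. The TEAD letters GGAATG were found in 8.70%, 10.7% and 13.4%. Base composition moved with these shares: the median GC content was 61.0% under wide regions, 62.3% under other shared regions and 57.0% over all windows, with a median of 23, 24 and 14 CpG dinucleotides. The part of base composition in the motif shares was not tested. For all 5 motifs the interval of the wide regions overlapped that of the other shared regions.

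The selection bounds how far the widths of both replicates can differ, so their likeness is a description of the chosen regions only. The widest peak of a wide region had a median of 1185 bp in replicate 1 (1000 to 2835 bp) and 1189 bp in replicate 2 (1000 to 2490 bp). Replicate 1 was the wider in 243 regions, replicate 2 in 242, and both were equal in 5. The larger width exceeded the smaller by a median ratio of 1.08, with 289 regions under 1.1 and 6 over 1.5. Most of the set lay near the threshold, since the smaller of both widths had a median of 1127 bp, fell under 1100 bp in 201 regions and reached 1500 bp in 31.

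Nearly all wide regions were a single peak in each list, not a chain of peaks joined by merging. This held for 483, and 7 held more than 1 peak in a list, near Gm20783, Srsf5, Tspyl1, Crlf2, Cpn2, Eapp and Sgms1. The start of the widest peak differed between replicates by a median of 64 bp and its end by 71 bp, against 89 and 90 bp in the other shared regions. The bases covered in both replicates made up a median 0.879 of those covered in either, against 0.633. Starts and ends set the widths that the rule used, so the shifts are not independent of the selection. In regions of 1000 bp or more in 1 replicate only, both median shifts were 163 bp. Wider intervals also overlap more for the same shift of their ends, so the second comparison follows in part from the width.

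**Figure D1:**
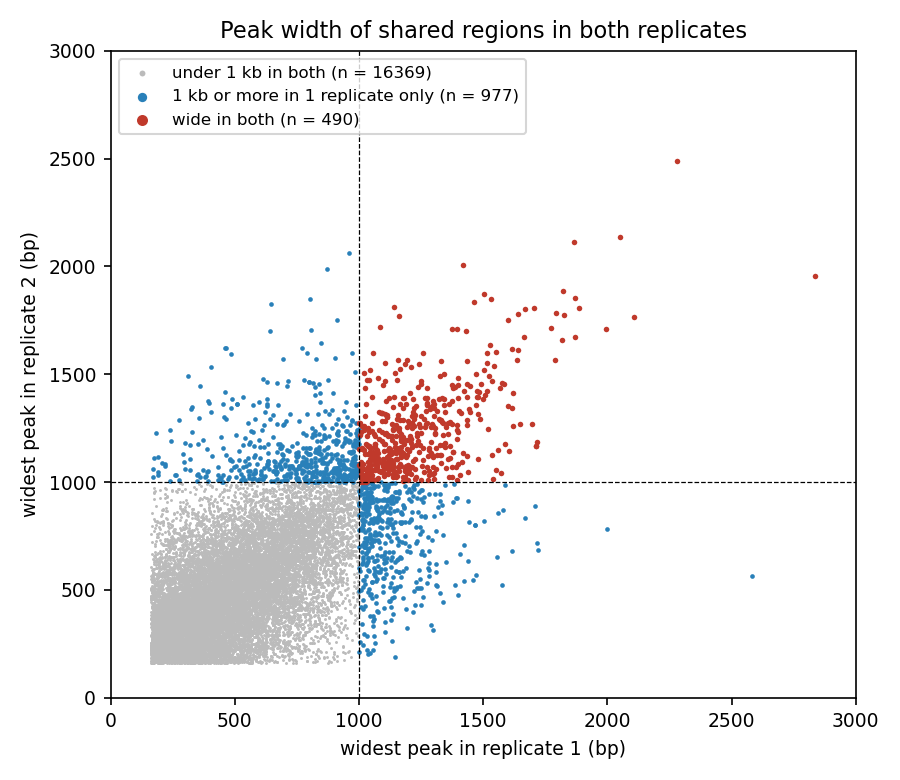
Width of the widest peak in replicate 1 (x axis, bp) against replicate 2 (y axis, bp) for each shared region on chromosomes 1 to 19; dashed lines mark 1000 bp. The 490 wide regions (red) fill the upper right field and thin out quickly above 1500 bp, and 977 regions (blue) passed the threshold in 1 replicate only.

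The threshold divides a continuous range. Replicate 1 alone had 947 regions with a peak of 1000 bp or more (3.60% of its 26332 peaks on chromosomes 1 to 19), of which 490 (51.7%) were also wide in replicate 2. Of the rest, 451 were narrower there, with a median of 783 bp, and 6 had no peak. Replicate 2 had 1022 such regions, and 490 of them (47.9%) were also wide in replicate 1.

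The nearest cases on either side show the same. Just inside lay regions near Mcu, the pore subunit of the mitochondrial calcium uniporter (1000 and 1274 bp in replicates 1 and 2), Focad (1018 and 1000 bp) and Evi5l (1000 and 1153 bp). Just outside lay regions near Klf11, a zinc-finger transcription factor (999 and 1048 bp), Zfp687 (1089 and 999 bp) and the caspase gene Casp9 (999 and 1033 bp). The largest ratios between replicates among the wide regions were at Crlf2 (1083 and 1719 bp), Neat1, the RNA scaffold of paraspeckles (1141 and 1811 bp), and Cyth3 (1162 and 1768 bp).

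Position was not used by the rule, and the wide regions lay somewhat more often at gene ends than the other shared regions did. A region was placed by the midpoint of its widest replicate 1 peak, so that a wide region has no greater chance than a narrow one of reaching a gene. Of the wide regions, 218 (44.5%, 40.1 to 48.9%) had this midpoint within 1 kb of the end of a RefSeq gene, against 37.9% (37.2 to 38.6%) of the other shared regions, and the intervals did not overlap. A further 170 (34.7%) lay inside a gene away from its ends, against 37.8%, and 102 (20.8%) lay outside genes, against 24.3%. The share at gene ends was not particular to the wide regions: of the 977 regions that passed 1000 bp in 1 replicate only, 44.8% (41.7 to 48.0%) lay there.

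The excess at gene ends was in 2 classes. Ends of 2 or more protein-coding genes within 1 kb were found for 49 wide regions (10%, 7.65 to 13.0%) against 6.29% (5.94 to 6.66%) of the others. A noncoding gene end alone was found for 40 (8.16%, 6.05 to 10.9%) against 4.90% (4.59 to 5.23%). In both classes the intervals stood apart. Regions just narrower had shares like those of the wide ones at the ends of 2 or more coding genes, with 9.84% at a smaller width from 600 to under 800 bp, 11.0% from 800 to under 1000 bp and 9.31% (7.65 to 11.3%) among those wide in 1 replicate only. The end of exactly 1 protein-coding gene, the largest class of gene ends, was as frequent in both, at 26.3% (22.6 to 30.4%) and 26.7%. Intervals cover counting error only and treat regions as independent, which neighbouring regions are not.

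**Figure D2:**
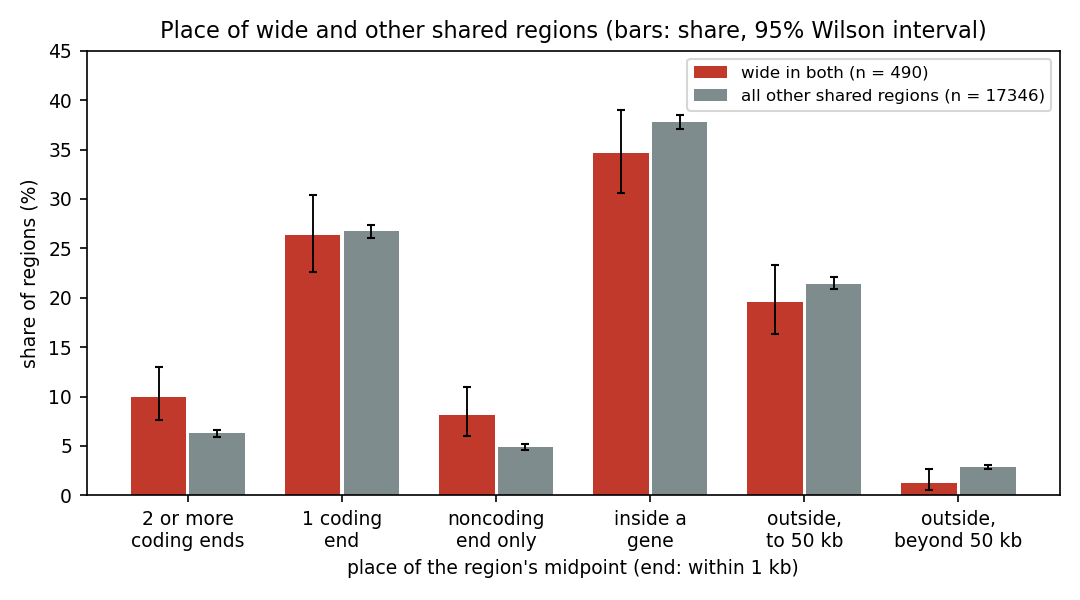
Share of wide regions (red) and of the other shared regions (grey) in each class of place, in percent, with 95% Wilson intervals as error bars. The wide regions stood above the others at the ends of 2 or more coding genes (10% against 6.29%) and at noncoding ends alone (8.16% against 4.90%).

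Among the regions at the ends of 2 or more coding genes, the region between Rras, a RAS-family GTPase, and Scaf1, an SR-related protein that binds the polymerase tail, measured 1773 bp in replicate 1 and 1716 bp in replicate 2. The region between Lpxn, a paxillin relative at adhesion sites, and Zfp91 was 1515 and 1601 bp wide. That of Polr2a, which also lies within 1 kb of an end of Slc35g3, was 1422 and 1421 bp wide. In each of these the replicates differed by less than 100 bp. Of the wider regions in this class, that at Hcfc1r1 differed by more, with 1864 and 2115 bp, and that at Usp5 had 1795 and 1782 bp.

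At the end of a single coding gene, Dusp1 had a region of 1705 and 1806 bp, with its midpoint 555 bp before the start. Coding ends were nearly always starts where the strand is known. Of 156 wide regions at a coding end with a start in the RefSeq promoter table, 148 (94.9%, 90.2 to 97.4%) lay at the start and 8 at the other end, against 96.3% at the start in the other shared regions; for 22 the table gives no start.

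Within 1 kb of a coding start, the wide regions were centred on the start but spread further around it. Their midpoints had a median of 33 bp upstream (-33; middle 50% of regions from -361 to 207 bp), against -29.5 bp (-160 to 94.3 bp) for the other shared regions. The share whose midpoint was downstream of the start was 45.7% (38.2 to 53.4%) and 43.3%. A wide peak that includes the start can have its midpoint further from it than a narrow one, so the spread follows in part from the selection.

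**Figure D3:**
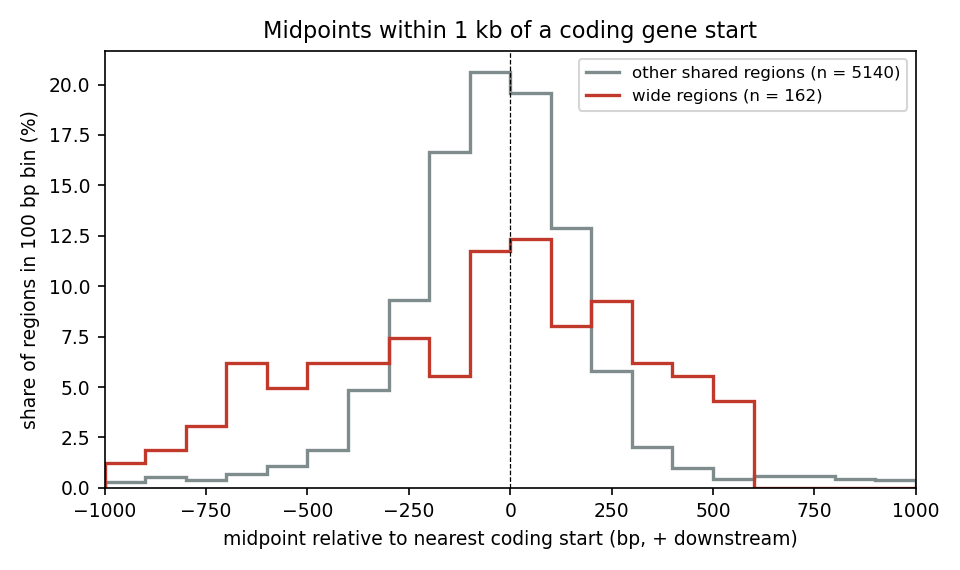
Midpoints of wide (red, n = 162) and other shared regions (grey, n = 5140) within 1 kb of a coding start, as the share of regions per 100 bp bin; positive distances are downstream. Both sets are centred near 0, and the wide regions reach further to both sides.

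Over the whole range of widths, the share at coding gene ends did not rise steadily. It was 21.7% among regions whose smaller width was under 250 bp and 40.9% from 600 to under 800 bp. It was then 39.3% from 800 to under 1000 bp, 37.8% (32.8 to 43.1%) from 1000 to under 1200 bp, 33.3% (25.6 to 42.1%) from 1200 to under 1500 bp and 32.3% (18.6 to 49.9%) in the 31 regions of 1500 bp or more. Peaks of middling width thus lay at coding ends as often as the wide ones did.

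Inside genes, several of the widest regions lay far from any coding end. One within Dlgap1, which encodes a postsynaptic scaffold protein, was 1995 and 1711 bp wide and 82615 bp from the nearest end of a coding gene. One within Nav2, a neuron navigator gene, was 1667 and 1804 bp wide and 212949 bp from such an end. In Kdm6b, the demethylase that removes the repressive mark on histone H3 lysine 27, the region was 1871 and 1675 bp wide and 1771 bp from an end. A position inside a gene does not tie a region to that gene.

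Gxylt2, whose product adds xylose to Notch receptors, held a region of 1817 and 1659 bp, 10798 bp from its end. Tm4sf1, a membrane protein of adherent cells, held one of 1639 and 1612 bp. A region 97419 bp from Tomm20, inside the annotated gene Gm31718, was 1663 and 1675 bp wide. One 42910 bp from Cd44, the hyaluronan receptor, lay inside the annotated gene Gm34483 and was 1616 and 1618 bp wide, nearly equal in both replicates.

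Outside genes, a region 7197 bp from Sphk1, the kinase that makes sphingosine 1-phosphate, was 1640 and 1781 bp wide, and one 3018 bp from Sema4f, a semaphorin, was 1551 and 1602 bp wide. Regions over 50 kb from any gene were scarcer among the wide ones, with 6 of 490 (1.22%, 0.562 to 2.65%) against 2.85% (2.62 to 3.11%), though the intervals overlapped. The widest of these was 57427 bp from the nearest gene and 208728 bp from Cep162 (1314 and 1331 bp), and the most isolated lay 223186 bp from Fzd1, a Wnt receptor gene (1215 and 1164 bp).

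Genes of small nuclear RNAs stood out among the noncoding ends. These short RNAs are the cores of the particles that splice transcripts (U1, U2, U5 and, for a rare class of introns, U12), or act in the processing of ribosomal RNA (U3, which RefSeq puts under the same type). Most are known to be transcribed by RNA polymerase II from compact promoters of their own. Of the wide regions, 17 (3.47%, 2.18 to 5.49%) overlapped such a gene, against 11 of the 17346 others (0.0634%, 0.0354 to 0.114%).

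A wide peak reaches more neighbours, so the count was also taken from the midpoint. By that measure the same number of wide regions, 17 (3.47%), lay within 1 kb of a small nuclear RNA gene, against 30 others (0.173%, 0.121 to 0.247%). Seen from the genes, 28 shared regions overlapped one, and 17 of these 28 (60.7%, 42.4 to 76.4%) were wide, where 2.75% of all shared regions were. This share is again by overlap, which favours wide peaks. By midpoint the 17 wide regions stood beside the 30 others given above, so the share that were wide was lower. RefSeq lists 931 small nuclear RNA genes, most of them predicted copies. The 17 wide regions overlapped 18 of them, 13 wholly and the rest in part.

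By the classical names, 7 of the 15 annotated genes named Rnu on these chromosomes had a wide region and 4 more had another shared region. Rnu1a1, a U1 gene at chr11:87422867-87423030, lay under a region of 1621 bp in replicate 1 and 1261 bp in replicate 2. Rnu2-10 (U2) had 1498 and 1384 bp, Rnu5g (U5) 1179 and 1345 bp, and Rnu12 (U12) 1131 and 1216 bp. All were over the threshold by at least 100 bp in each replicate. Only the edge of Rnu2-10 was covered, since the gene ends at base 101658424 of chromosome 11 and its region began at 101658416.

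The U3 genes Rnu3b3, Rnu3b4 and Rnu3b2 had 1061 and 1110 bp, 1056 and 1139 bp, and 1059 and 1011 bp. Rnu7, whose RNA processes histone transcripts, fell just under the threshold in 1 replicate (1034 and 996 bp). Further below it in 1 replicate were Rnu11 (873 and 1160 bp) and Rn7sk (1057 and 811 bp). Rn7sk is the 7SK RNA that holds P-TEFb inactive together with the Hexim1 protein. Rnu3a had 1997 and 783 bp.

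The genes were far shorter than the peaks, and most lay away from their midpoints, though Rnu12 lay 22 bp from one. The U1 gene is 164 bp long, and over the 18 genes under wide regions the nearest gene edge was a median of 438 bp from the midpoint of the peak (22 to 741 bp). The table gives no strand for these genes, so whether the peaks extended upstream or downstream is not given. Genes of this kind have near-identical copies, and the sources used here do not say how reads that fit several copies were placed, so the assignment of signal to a given copy is uncertain.

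They also gathered in runs. Inside Tex14, a gene of germ cell division at chr11:87405013-87555823, 4 wide regions lay over Rnu1a1, Rnu3b3, Rnu3b4 and Rnu3b2, the most for any gene, and the last 3 spanned 23856 bp. The narrower shared region over Rnu3b1 in the same stretch measured 867 and 744 bp. Each peak over a U3 copy in this stretch inside Tex14 began within that copy and extended away from it to the same side. A second run of 3 wide regions within 29830 bp, between Mreg and Pecr on chromosome 1, lay over the copies Gm25360, Gm24497 and Gm25939, with widths of 1065 and 1165 bp, 1386 and 1442 bp, and 1118 and 1038 bp.

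**Figure D4:**
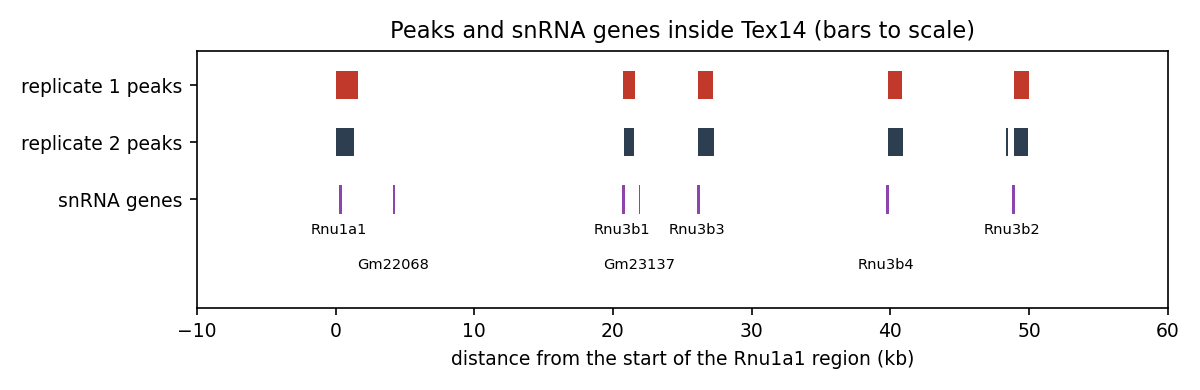
Peaks of replicate 1 (red) and replicate 2 (dark) and small nuclear RNA genes (purple) in the stretch inside Tex14, to scale, in kb from the start of the region over Rnu1a1. The peaks of both replicates coincided over 5 of the 7 genes, 4 of them at 1000 bp or more in each replicate.

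Transfer RNA genes, which RNA polymerase III transcribes, were the other small RNA class. Wide regions over them numbered 8 (1.63%, 0.830 to 3.19%) and covered 18 such genes, against 64 of the others (0.369%, 0.289 to 0.471%). The widest lay over n-TGtcc7, n-THgtg8 and n-TKctt16 on chromosome 3, with 1533 and 1850 bp, and the next over n-TCgca54 and n-TCgca55 on chromosome 11, with 1324 and 1384 bp. Only 11.1% (5.74 to 20.4%) of the 72 shared regions over tRNA genes were wide, and 7 of the 8 wide ones covered 2 or 3 genes each, so neighbouring genes shared a peak.

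Along the width classes, the share with a midpoint within 1 kb of a small nuclear RNA gene was 0.189% from 600 to under 800 bp, 0.598% (0.274 to 1.30%) from 800 to under 1000 bp, 3.27% (1.84 to 5.77%) from 1000 to under 1200 bp and 4.88% (2.25 to 10.2%) from 1200 to under 1500 bp. It was 0 of 31 at 1500 bp or more, with a Wilson upper limit of 11.0%. The share for tRNA genes went from 0.245% under 250 bp to 1.20% from 800 to under 1000 bp and 1.49% from 1000 to under 1200 bp, without such a step.

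**Figure D5:**
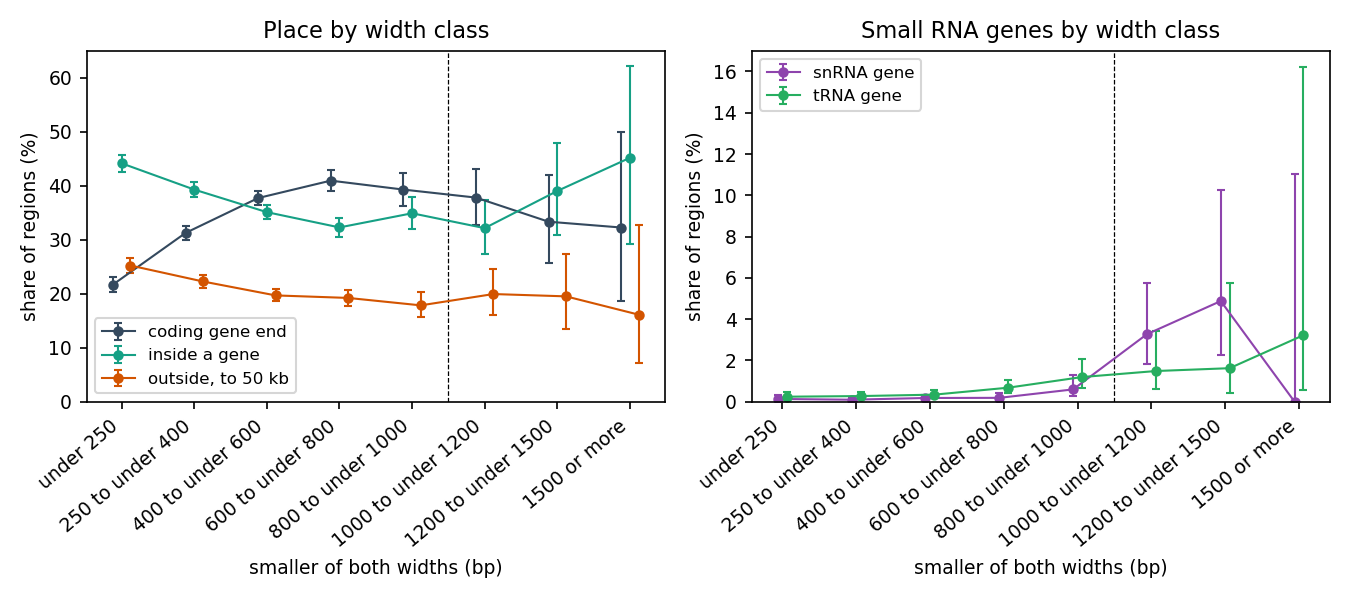
Share of shared regions (percent, 95% Wilson intervals) at a coding gene end, inside a gene or outside within 50 kb (left), and within 1 kb of an snRNA or tRNA gene (right), by the smaller of both widths in bp; the dashed line marks 1000 bp. The snRNA share stayed under 1% below 1000 bp and was 3.27% and 4.88% in the next classes.

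These small RNA genes carried much of the noncoding excess. They lay under 16 of the 40 wide regions at a noncoding end alone (40%, 26.3 to 55.4%), against 55 of 850 others (6.47%). Without the 25 wide regions and 75 others over such genes, a choice made after seeing the data, noncoding ends alone held 5.16% of wide regions (3.49 to 7.56%) and 4.60% of the others, which their intervals did not separate. The share at 2 or more coding ends was then 10.5% (8.06 to 13.7%) against 6.31%, and at any gene end 41.5% (37.1 to 46.0%) against 37.6% (36.9 to 38.4%). The first of these still stood apart, and the intervals at any gene end overlapped.

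Among the remaining noncoding ends was Mir22hg, the host gene of the microRNA miR-22, with 1544 bp in replicate 1 and 1540 bp in replicate 2 and a midpoint 525 bp from its end. Neat1 had the unequal widths given above. Rn18s-rs5, a ribosomal RNA copy, had 1090 and 1048 bp, and as a repeated sequence it carries the same doubt about read placement. MicroRNA hairpins lay under 2 wide regions, Mir7238 and Mir707 (0.408%, 0.112 to 1.48%), against 0.231% of the others, and no wide region overlapped a gene of type snoRNA (0 of 490, Wilson upper limit 0.778%).

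Wide regions sat in somewhat denser neighbourhoods than the other shared regions. The nearest other shared region was a median of 17132 bp away (95% interval of the median 14914 to 19357 bp), against 22113 bp for the other shared regions. For regions of 1000 bp or more in 1 replicate only it was 19121 bp, within that interval. The shorter distance was thus not particular to the wide regions. By chromosome, the share of shared regions that were wide was highest on chromosome 19 (39 of 728, 5.36%, 3.94 to 7.24%) and lowest on chromosome 18 (6 of 518, 1.16%, 0.532 to 2.50%), with the remaining 17 chromosomes between 1.40% and 3.60%. Chromosome and local density were not separated from each other here.

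Genes were linked to a wide region when its midpoint fell in the gene or at most 10 kb beyond it. By that rule 543 of 20661 protein-coding genes were linked (2.63%), and of the 11274 genes with any shared region 4.82% had a wide one. Links are by distance alone, and neighbouring genes share regions: Bad, which promotes cell death, and Gpr137 shared the same 2 wide regions on chromosome 19, and these were all the shared regions either had. Stard13 had 2 wide of 9 shared regions, Zfp469 2 of 9, Babam2 2 of 8, Tgfbr3 2 of 6 and Stk40 2 of 4.

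Early response and AP-1 genes, which react within minutes to growth factors and stress, had the largest share of any list, counted over all its genes. All 27 had a shared region, and 5 (18.5%, 8.18 to 36.7%) had a wide one. This stands beside 2.63% of all coding genes and 4.82% of those with a shared region. All 18 lists were chosen with earlier results of these data known. Their shares, here and below, are therefore a description, and no support is drawn from them. Counted over genes with a shared region only, other lists came close, with 4 of 22 for TGF-beta and BMP and 4 of 27 for chromatin and transcription. The 5 early response genes with a wide region are named next. They were Dusp1, the zinc-finger factor Egr1 (1537 and 1470 bp), the AP-1 subunit Fosb (1144 and 1182 bp), Ier3 (1158 and 1070 bp) and Zfp36, which destabilises cytokine transcripts (1065 and 1128 bp). The widest region of a gene, by the smaller of both widths, had a median of 652 bp in this list, the 5 included. Over all linked coding genes it was 509 bp. The rule used width, so this is a description only.

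Of the AP-1 subunits, Fosb was among the 5 and Fos, Jun, Junb and Fosl2 were not. The widest regions measured 590 and 598 bp for Fos, 916 and 729 bp for Jun, 524 and 366 bp for Junb and 673 and 927 bp for Fosl2, and Egr2, with 995 and 920 bp, fell short by little. Where the 5 wide regions lay also differed: at an end for Dusp1 and Egr1, inside the gene for Fosb, 2367 bp away for Zfp36 and 8348 bp away for Ier3.

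Of the TGF-beta and BMP pathway, which drives osteoblast commitment, 4 of 33 genes (12.1%, 4.82 to 27.3%) had a wide region. Over all coding genes the share was 2.63%. Over coding genes with a shared region it was 4.82%, at the lower edge of this interval. For the co-receptor Tgfbr3 the wider of 2 regions was 1487 and 1291 bp, inside the gene and 60779 bp from an end. Ltbp1, which stores latent TGF-beta in the matrix, had one of 1217 and 1325 bp, also deep inside the gene. The inhibitor Smad7 (1193 and 1127 bp) and the BMP target Id1 (1276 and 1121 bp) had theirs at a gene end.

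Of the chromatin and transcription list, 4 of 28 (14.3%, 5.70 to 31.5%) had a wide region: Tnrc18, Kdm6b, Polr2a and Hexim1 (1076 and 1104 bp). Of the Wnt list, 2 of 39 had one, at Wnt10a and at the start of the kinase gene Gsk3b (1035 and 1038 bp). In the cell cycle list 2 of 23 had one, at Mdm2 (1357 and 1275 bp) and at the replication helicase gene Mcm7 (1272 and 1388 bp), whose region lies within 1 kb of an end of Ap4m1 too. The shares were 5.13% (1.42 to 16.9%) for Wnt and 8.70% (2.42 to 26.8%) for the cell cycle. Both intervals include the 2.63% of all coding genes and the 4.82% of those with a shared region. That of the chromatin list lies above both, and 27 of its 28 genes had a shared region.

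Some links in the lists rested on a neighbour. Axl, a receptor kinase and YAP target, had a region of 1476 and 1421 bp that was nearer to Hnrnpul1, and with Amotl1, which binds YAP (1159 and 1252 bp, inside the gene), it made 2 of 19 in the YAP and TEAD list. In the actin and adhesion list, 2 of 26 were linked, and both regions lay over small nuclear RNA copies: the one linked to paxillin (Pxn; 1266 and 1389 bp) lay over Gm24265 and Gm24407 and nearest to Sirt4, and the one linked to calponin 2 (Cnn2; 1363 and 1023 bp) lay over Gm26243 and nearest to Tmem259. Vcam1, an adhesion receptor, was the only one of 19 in the list on osteoclast support and cytokines (1122 and 1125 bp). Shares were 10.5% (2.94 to 31.4%) for YAP and TEAD, 7.69% (2.14 to 24.1%) for actin and adhesion, and 5.26% (0.935 to 24.6%) for osteoclast support. The 2.63% of all coding genes lies within the actin and osteoclast support intervals and just below that of YAP and TEAD. The 4.82% of coding genes with a shared region lies within each of these intervals.

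The lists of osteoblast genes had shares near that of all coding genes. In the list of bone matrix and mineralisation genes none of 28 had one (Wilson upper limit 12.1%), although 20 had a shared region. Among osteoblast transcription factors 1 of 25 did, Atf4 (1093 and 1321 bp), the factor that osteoblasts use for amino acid import and osteocalcin. The intervals of both lists (up to 12.1%, and 0.710 to 19.5%) include the 2.63% of all coding genes, so neither a shortage nor an excess was detectable at this number.

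The regions that these genes did have were mostly of ordinary width. By the smaller of both widths, the widest region of a gene had a median of 541 bp in the bone matrix list. It was 538 bp among the transcription factors and 509 bp over all linked coding genes. The widest near Runx2 itself measured 715 and 665 bp, and those near Sp7, Spp1 and Col1a1 350 and 452 bp, 534 and 693 bp, and 580 and 627 bp. Col1a2 (918 and 1095 bp), Dmp1 (1124 and 516 bp), Mgp (1173 and 854 bp), Lox (791 and 1597 bp) and Runx1 (1076 and 984 bp) passed 1000 bp in 1 replicate only.

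Of the lists with no wide region, that of FGF, hedgehog, PTH and Notch genes (32 genes) held 2 close cases, Fgf2 (992 and 1033 bp) and Notch2 (990 and 1083 bp). None was found for the 25 ribosomal protein genes, of which 21 had a shared region, nor for chondrocyte (15), adipocyte (16), skeletal muscle (13), neuron (14), liver (14) and blood cell genes (15). Few of the last 4 lists had any shared region at all, with 4, 3, 1 and 3 genes. Peaks show where RUNX2 antibody signal lay and not what is expressed, so these markers do not check the identity of the cells.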

How the data were processed

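RUNX2 CUT&Tag was measured in 2 libraries of MC3T3-E1 cells, replicates of 1 group by their labels. The authors deposited 1 peak list per replicate (26853 and 27287 peaks), not a list from pooled reads. Their values are positions and widths in bp, without score, height or read number, so the depth of each sample is unknown. Reads were processed with fastp 0.19.6, Bowtie2 and deepTools on GRCm38 (mm10), per the submitters' processing notes, which list them without roles or settings. For the peak caller, its threshold, any control and the placement of reads fitting several sites, the sources used here give nothing. These choices set peak widths, so the threshold of 1000 bp has no meaning outside these lists.

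Peaks overlapping by at least 1 bp were merged with Python 3.11.15 and pandas 2.3.3; counts of overlapping peaks equalled those of bedtools 2.31.1, and merging and placing were tested on simulated data. Genes are spans from RefSeq (GRCm38.p6), 47038 on chromosomes 1 to 19, and starts came from its promoter table, which covers 16456 of the 20661 coding genes there and none on chromosome 18. Shares have 95% Wilson intervals, and no significance test was made. Other shared regions are the background, since no control library was analysed here. Alternatives were another overlap rule, thresholds of 800 and 1500 bp, the replicate 2 midpoint, other distances and each replicate alone.

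Members and gene lists were chosen with earlier results of these data known. Genes were named by rule: the 20 widest regions by the smaller width, the 4 widest per class of place, up to 4 per gene list, the 8 genes with most wide regions, those nearest the threshold, those least alike between replicates and those with several peaks. Gene sets named otherwise, such as list genes without a wide region, individual small RNA genes and the 4 promoters picked for the RUNX core, were chosen after their values were seen, and regions already known as the widest are named only briefly. Not every region that the rule selects is described.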

Additional observations from a re-analysis of the deposited data

Results flagged for a closer look

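Data outside chromosomes 1 to 19 held 4 wide regions, of 297 shared regions there (1.35%, 95% Wilson interval 0.525 to 3.41%), without a control library to set them against. On chromosome X they lay near Rpl10, a ribosomal protein gene (1447 bp in replicate 1 and 1037 bp in replicate 2), and Yipf6 (1085 and 1278 bp). The other two lay on contigs without a position in the assembly, of which one is assigned to chromosome 4, with 1536 and 1511 bp and with 1533 and 1530 bp. No gene near them is named.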

How the results depend on the processing

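Of 74 alternatives over 9 results, 51 kept the value within the limit set for it and 23 moved it. For shares and the median distance the limit was the interval of the main value. For counts it was a fixed factor up or down, whatever the number of regions. Requiring 1500 bp left 31 regions, with 38.7% at gene ends, 45.2% inside genes, 16.1% outside, a median distance to the next shared region of 19459 bp, 43 linked coding genes, 4 listed genes and 0 over snRNA genes. Requiring 800 bp gave 1493 regions, 1631 coding genes and 57 listed genes. Of these 1493 regions 21 overlapped an snRNA gene, beside 17 of 490. That count was within its limit, though the share was lower. With 3 kb in place of 1 kb, 54.7% lay at a gene end, 43.7% at a coding end and 27.4% inside genes. An overlap of at least 50% of both peaks gave a median distance of 20146 bp. Leaving out either replicate gave 947 to 1022 regions, a median distance of 14112 to 14327 bp, 1004 to 1140 coding genes and 38 to 43 listed genes. The distance was then to the nearest region with a peak in the kept replicate, not to the nearest shared region. It is therefore not the same measure as the main value. The cause was not tested beyond the number of regions each setting keeps. No paired analysis was possible because there is 1 group. With 2 libraries, no read counts and no control, neither depth nor background can be weighed, and a region under 1000 bp in 1 replicate is not shown to differ from a member.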
